A study of Mus musculus with 30 samples.

Results

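Mouse cells that had been differentiating for 48 h were compared with cells of the same age that were afterwards re-seeded for 48 h with the reprogramming factors switched on. Both groups are dox-inducible secondary iPSCs, a pluripotent line made by reprogramming, with Oct4, Sox2, Klf4 and cMyc (OSKM) transgenes under the control of doxycycline (dox). All groups also share a GFP reporter in 1 allele of Nanog and a nuclear RFP. The first group, 48 h, was collected 48 h after 2i/LIF withdrawal in serum-free N2B27 medium, without dox. The second, 48 h +dox, spent a further 48 h in serum/LIF with 2 µg/ml dox. Each group had 2 samples, which are 4 of the 30 samples of polyadenylated RNA in the study. Another group of 2 samples, 48 h –dox, was re-seeded for the same time in serum/LIF without dox and is used here to divide the difference. The step from 48 h to –dox holds re-seeding, medium and 48 h more in culture, which cannot be told apart, and the step from –dox to +dox holds dox and OSKM. The log2 ratios of both steps add up to the log2 ratio of +dox to 48 h. In the methods MEF feeders are named for re-seeding in the colony assay, and whether feeders lay under the cells taken for RNA is not stated.

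The deposited table holds 1 FPKM value (fragments per kilobase of transcript and unit of sequencing depth) for each gene and condition, made from both replicates together. Without separate values for the replicates, no difference can be set against their spread, and none was tested. Read numbers are not part of the table. For 1380 single-transcript genes no shorter than 2.5 kb, the lowest values times length were read below a limit set beforehand and shared by all conditions. This took in 88 genes in 48 h, 103 in –dox and 112 in +dox. With their median as a step, a 2 kb gene at 1 FPKM stands at 30.7 steps in 48 h, 29.5 in –dox and 30.2 in +dox. The shared limit itself keeps these values close, so their likeness does not show that depth was alike. A step is not a read count, since each value combines 2 libraries, and depth itself is unknown. The values summed to 766067 FPKM in 48 h, 780060.0 in –dox and 832607 in +dox, and scaling to equal sums would take 0.12 from every log2 ratio of +dox to 48 h. The median ratio of genes expressed in both was 0.999, and the values were used as deposited.

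Of the 22477 genes in the table, 12809 had at least 1 FPKM in 48 h or in 48 h +dox. The lowest of them was Zfp273, with 1.0015 FPKM in its higher condition, and the gene just outside was Msx1, with 0.9996 FPKM. Higher and lower are used here for genes with a ratio of 2 or more between the conditions. In 48 h +dox 1891 of the 12809 genes (14.8%) were higher than in 48 h, 1493 (11.7%) were lower and 9425 were neither. The median log2 ratio was 0.01, and the middle 90% of the ratios ran from -1.60 to 1.91. In –dox against the same 48 h cells, 1961 genes were higher (15.3%) and 1479 lower (11.5%). In +dox against –dox, 831 were higher (6.56%) and 818 lower (6.46%). These 3 comparisons share conditions with each other, so the values of each are given side by side and not as independent evidence. The counts of each list below are to be read beside these shares of all genes. For both steps too, a list keeps only its genes with at least 1 FPKM in 48 h or 48 h +dox. Genes that reached 1 FPKM in –dox alone are therefore left out of the lists.

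Naive pluripotency is the state held by 2i/LIF, in which a network of transcription factors that includes Nanog, Esrrb and Tfcp2l1 sustains self-renewal. On withdrawal this network is shut down and cells pass through a formative state, marked by Fgf5, Otx2 and the de novo DNA methyltransferases, before they become competent for the germ layers. Ectopic OSKM can turn the process back, and LIF supports it through Stat3. Serum brings lipoproteins, growth factors and BMP-like activity that are missing from N2B27.

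The 4 transgenic factors were read first. A value may hold RNA from the endogenous gene as well as from its transgene. Pou5f1, which encodes Oct4 and maps to chromosome 17 of mm10 from 35506018 to 35510772, was at 205 FPKM in 48 h, 72.6 in –dox and 204 in +dox. The value in +dox was therefore level with that of the cells before re-seeding, and the log2 ratio of –dox to 48 h was -1.50. Sox2 was at 46.7 FPKM in 48 h, 43.4 in –dox and 87.8 in +dox, 1.88-fold above 48 h and just short of 2-fold. Klf4 had 3.25 FPKM in 48 h, 4.68 in –dox and 14.6 in +dox, and was the only one of the 4 factors that was at least 2-fold higher in +dox than in 48 h. For Myc the values were 20.5, 35.9 and 18.7 FPKM in the same order, so the highest was that of –dox.

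Naive genes were higher in 48 h +dox. Of the 20 genes of a list of naive pluripotency genes, 19 had at least 1 FPKM in 48 h or +dox, of which 10 were higher, 0 were lower and 9 were neither. Prdm14 did not reach 1 FPKM. The median log2 ratio was 1.30, against 0.01 over all genes. It was -0.62 from 48 h to –dox, in which 4 genes were higher and 6 lower, and 1.64 from –dox to +dox, in which 13 were higher and 0 lower. These 13 include Klf4, which is also 1 of the factors driven by dox. Esrrb, an orphan nuclear receptor of the naive network on chromosome 12 of mm10 from 86361117 to 86521628, was at 12.8 FPKM in 48 h, 8.31 in –dox and 56.2 in +dox. It had stood at 149.9 FPKM at 0 h, before withdrawal. Tfcp2l1, a transcription factor downstream of LIF and Stat3, had the largest log2 ratio of the list, 3.48, with 2.82 FPKM in 48 h, 7.84 in –dox and 31.5 in +dox. Nanog, on chromosome 6 of mm10 from 122707489 to 122714633, stood higher after re-seeding with or without dox, at 6.45 FPKM in 48 h, 32.9 in –dox and 48.6 in +dox. Most of its log2 ratio of 2.91 lay in the first step, at 2.35. Klf5, another Kruppel-like factor of the network, showed the same order, with 16.7, 55.1 and 59.2 FPKM, and its 2 later values were close together.

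Other naive genes had their lowest value in –dox and their highest in +dox. Nr0b1, a nuclear receptor that binds Oct4 and Esrrb, had 6.61 FPKM in 48 h, 2.29 in –dox and 16.3 in +dox. Tcl1, a co-activator of Akt, had 1.96, 0.636 and 6.21 FPKM. Fgf4, the growth factor that pluripotent cells secrete, had 38.6, 9.14 and 54.0 FPKM, and Tdh, which breaks down threonine, had 62.3, 12.8 and 87.5 FPKM. The +dox values of these last 2 genes were both 1.40-fold above 48 h. Zfp42 (Rex1), a zinc finger marker of the naive state, had 31.8 FPKM in 48 h, 18.1 in –dox and 62.9 in +dox, a 1.98-fold difference that also falls just short. The T-box factor Tbx3 and the orphan receptor Nr5a2, both higher in +dox, started low, Tbx3 with 0.994, 4.33 and 8.76 FPKM and Nr5a2 with 1.25, 1.05 and 3.77 FPKM. Klf2 had 13.8, 17.2 and 27.0 FPKM, just under 2-fold above 48 h in +dox. Of the 9 genes that were neither, Gdf3, Eras and Dppa3 had a value in +dox below that of 48 h, Gdf3 (a Nodal-related ligand) with 42.2 and 25.8 FPKM and Eras (an ES cell Ras) with 12.3 and 9.12 FPKM. Dppa3 ended where it began, at 11.3 FPKM in 48 h and 11.1 FPKM in +dox. Summed over the 19 genes, the list held 1098 FPKM in 48 h, 1320.2 in –dox, 2662 in +dox and 6703 at 0 h, and Dppa5a alone made up most of each sum.

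**Figure D1:**
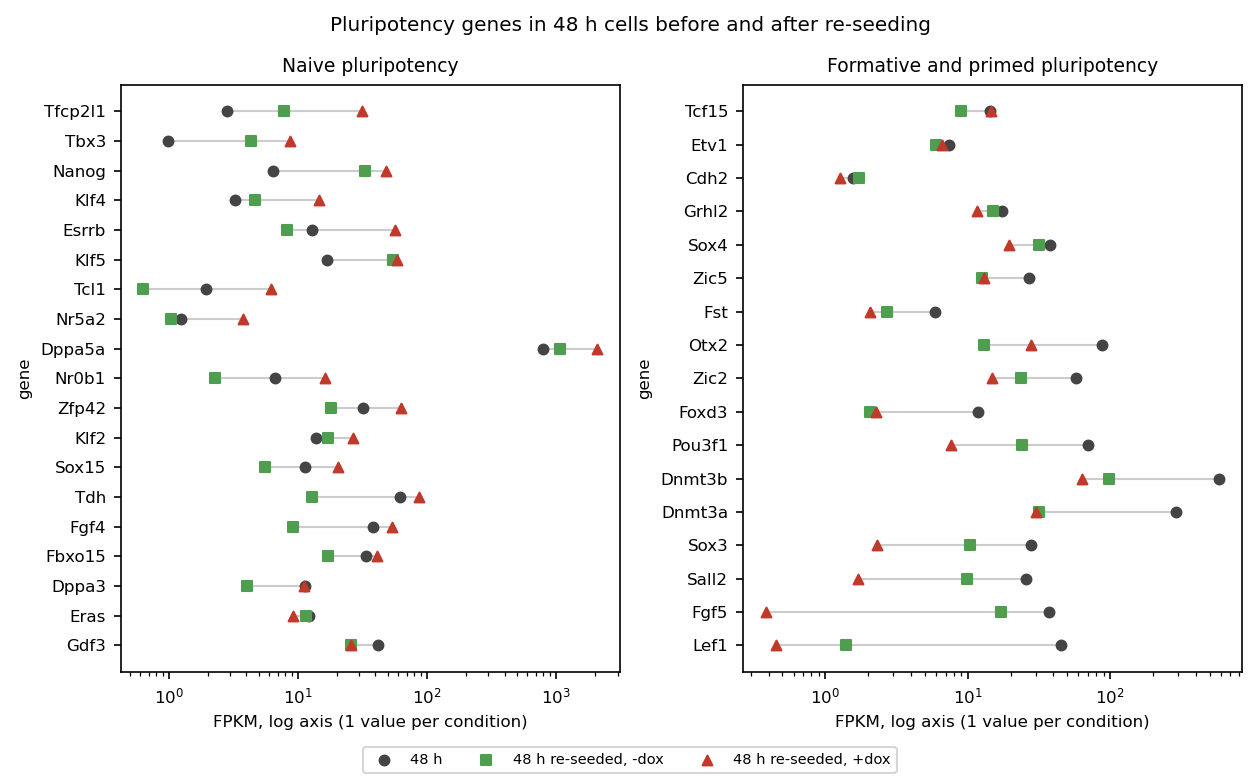
FPKM, on a log axis, of the naive (left) and formative or primed (right) genes that reached 1 FPKM, in 48 h cells (circles), 48 h –dox (squares) and 48 h +dox (triangles), 1 value per condition and ordered by the ratio of +dox to 48 h. Naive genes mostly have the triangle at the right, as for Esrrb at 56.2 FPKM, and most formative genes have the circle at the right, as for Lef1 at 45.5 FPKM.

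The promoter of Zfp42 is shown because it was the only 1 of 12 naive genes with a RefSeq promoter in which the octamer, the sequence bound by Oct4 (ATGCAAAT, both strands searched), was found. The window runs from 250 bases before to 50 after the start (build GRCm38.p6, minus strand, chr8:43306960-43307259). Capitals mark the octamer, which reads as its reverse complement on this strand. Of all 27025 genes with a promoter, 1.97% held the octamer, and 0 of 8 core and 0 of 11 formative genes did.
Zfp42: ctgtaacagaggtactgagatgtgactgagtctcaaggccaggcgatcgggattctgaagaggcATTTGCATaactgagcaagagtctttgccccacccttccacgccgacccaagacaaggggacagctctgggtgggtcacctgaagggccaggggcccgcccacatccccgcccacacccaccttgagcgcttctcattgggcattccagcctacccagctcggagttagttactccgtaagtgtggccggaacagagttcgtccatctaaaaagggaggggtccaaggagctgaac

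Formative genes were lower in 48 h +dox. Of 19 listed genes 17 reached 1 FPKM, 12 of which were lower, 0 higher and 5 neither, and the median log2 ratio was -1.98. Both steps had negative medians, -1.29 from 48 h to –dox and -0.44 from –dox to +dox. Fgf5, the classical marker of the epiblast after implantation, maps to chromosome 5 of mm10 from 98254184 to 98277030 and stood at 0.164 FPKM at 0 h and by 36 h at 35.1 FPKM. It was at 37.3 FPKM in 48 h, 17.2 in –dox and 0.381 in +dox. The larger part of its log2 ratio of -6.61 thus lay between –dox and +dox, at -5.50. Lef1, a transcription factor of the Wnt pathway, had 45.5, 1.41 and 0.448 FPKM, and here the larger part, -5.02, lay between 48 h and –dox. Sall2, Sox3 and Pou3f1 were lower at each step. Sall2 had 25.5, 9.97 and 1.69 FPKM, the SoxB factor Sox3 had 28.0, 10.5 and 2.31 FPKM, and the POU factor Pou3f1 had 69.6, 23.9 and 7.61 FPKM. Otx2, which drives the entry into the formative state, went another way. It was at 88.4 FPKM in 48 h, 13.1 in –dox and 27.7 in +dox, where it was 3.19-fold lower than in 48 h and above –dox. Tcf15 was level between 48 h and +dox, at 14.4 and 14.7 FPKM, and Grhl2, which opens epithelial enhancers in formative cells, had 17.4 and 11.6 FPKM.

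Of 12 core pluripotency factors, which both naive and formative cells express, 1 was higher, 3 were lower and 8 were neither. Of all genes 14.8% were higher and 11.7% lower. The median log2 ratio of the core factors was -0.14. It was -0.73 from 48 h to –dox and 0.64 from –dox to +dox. The list holds Pou5f1 and Sox2, 2 of the factors driven by dox. They were the only 2 genes of the list that were higher in +dox than in –dox. The gene that was higher was Tdgf1, the Nodal co-receptor Cripto, with 47.3 FPKM in 48 h, 130.1 in –dox and 202 in +dox. Dppa2, Foxd3 and Zscan10 were lower, Zscan10 with 94.0 FPKM in 48 h and 29.6 FPKM in +dox. Utf1, a chromatin factor of pluripotent cells, had 634 FPKM in 48 h, 298 in –dox and 549 in +dox. Dppa4 had the same order, with 123, 70.2 and 116 FPKM.

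The de novo DNA methyltransferases were lower in +dox. Of 12 listed genes that write or remove DNA methylation, 4 were higher, 5 lower and 3 neither in +dox, with a median log2 ratio of -0.81. The de novo methyltransferase Dnmt3b, on chromosome 2 of mm10 from 153649450 to 153687730, had 586 FPKM in 48 h, 98.5 in –dox and 63.8 in +dox, and Dnmt3a had 292, 31.8 and 30.3 FPKM. Their +dox values were 9.17-fold and 9.65-fold lower than those of 48 h. Their cofactor Dnmt3l and Uhrf1, which brings the maintenance enzyme Dnmt1 to replicated DNA, were also lower, Dnmt3l with 221 FPKM in 48 h and 66.4 FPKM in +dox and Uhrf1 with 143 and 62.8 FPKM. Of the Tet enzymes, which oxidise methylcytosine, Tet2 was higher, with 1.02 FPKM in 48 h, 2.16 in –dox and 5.2 in +dox. Tet1 had 32.6, 9.51 and 47.6 FPKM, so that it was lowest in –dox, and its +dox value was 1.46-fold that of 48 h. Tdg, the glycosylase that cuts out oxidised methylcytosine, was lower, with 59.2, 37.9 and 27.5 FPKM, and the deaminase Apobec1 was higher, with 2.0, 4.72 and 10.8 FPKM. Dnmt1 itself had 65.7, 35.1 and 39.6 FPKM. The stress genes Gadd45a and Gadd45b were higher in both re-seeded conditions, Gadd45b with 6.69 FPKM in 48 h, 162 in –dox and 108 in +dox.

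**Figure D2:**
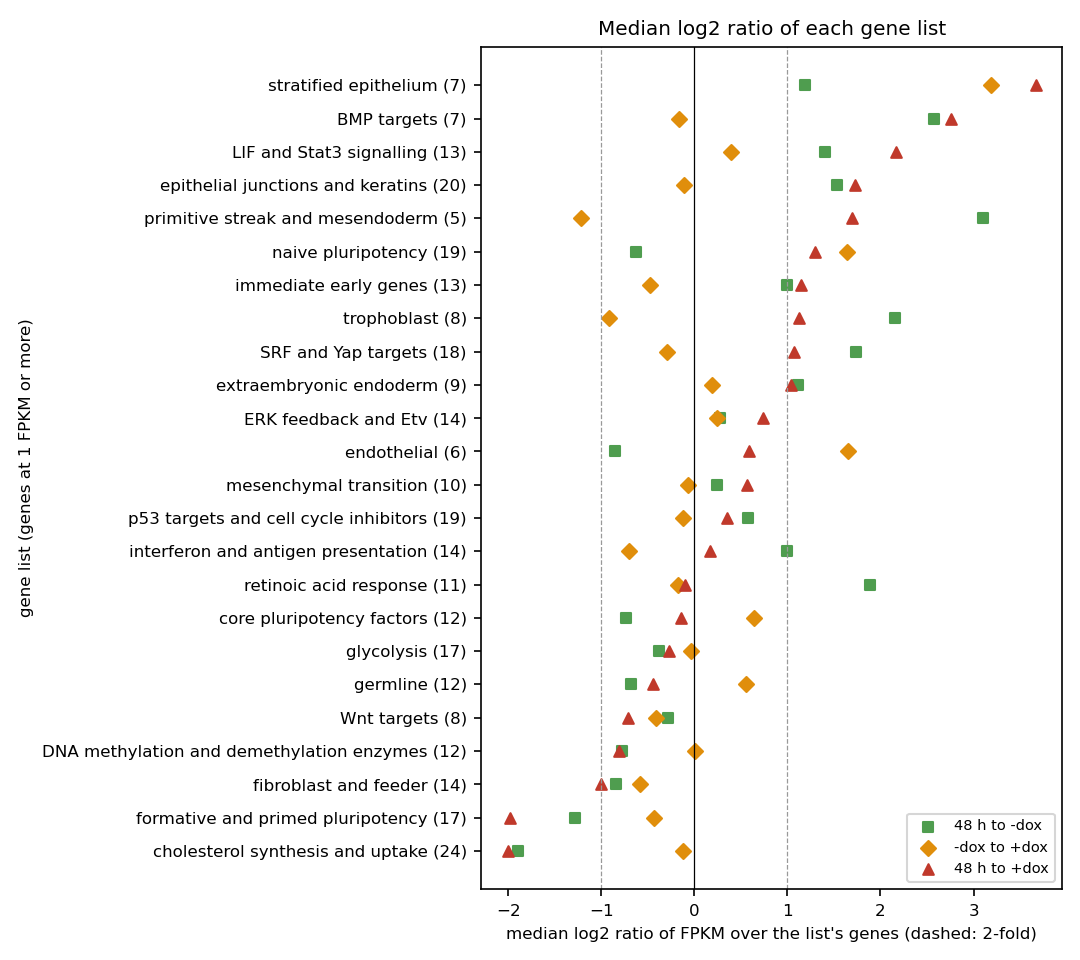
Median log2 ratio of FPKM over the genes of each list that reached 1 FPKM in 48 h or +dox (number in brackets), for 48 h to –dox (squares), –dox to +dox (diamonds) and 48 h to +dox (triangles), with lists of at least 5 such genes and dashed lines at 2-fold. For cholesterol genes the square and the triangle lie together, at -1.90 and -2.01, while for naive genes the square lies at -0.62 and the triangle at 1.30.

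Genes of cholesterol synthesis and uptake were lower, with a median of -2.01. As deposited this was the lowest of the 27 lists, close to the -1.98 of formative genes. With 1 FPKM added the order changed, to -1.88 for cholesterol and -1.91 for formative genes. All 24 genes of the list reached 1 FPKM, and 21 were lower, 0 higher and 3 neither in 48 h +dox than in 48 h. The step from 48 h to –dox also had 21 lower genes and a median of -1.90, whereas from –dox to +dox 0 genes of the 24 differed by 2-fold and the median was -0.12. Sterol synthesis is switched on by SREBP transcription factors when cells lack sterols, as in medium without lipoproteins, and Srebf2 encodes the main one. Srebf2 had 67.3 FPKM in 48 h, 33.1 in –dox and 37.0 in +dox, a 1.82-fold difference. Hmgcs1, which makes HMG-CoA at the head of the pathway, had 184, 37.0 and 32.0 FPKM. Sqle, which forms squalene epoxide, had 111, 33.1 and 26.2 FPKM. Fdps, which makes farnesyl diphosphate, had 281, 49.6 and 55.1 FPKM, Lss, which closes the sterol rings, had 27.0, 6.86 and 4.51 FPKM, and Dhcr7, which makes cholesterol in the last step, had 32.0, 8.15 and 9.46 FPKM. In each of these genes other than Srebf2, 48 h was more than 2-fold above both –dox and +dox. Insig1, which holds SREBP back in the endoplasmic reticulum, had 73.2, 11.9 and 19.2 FPKM. Summed over the list, the genes held 1587 FPKM in 48 h, 434 in –dox and 429.8 in +dox. The 3 genes that were neither are Ebp, Srebf2 and Tm7sf2, and Ebp alone had a value in +dox above that of 48 h, 14.4 against 8.62 FPKM.

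The promoter of Hmgcs1 is shown as the 1 of 16 genes of this list with a RefSeq promoter that held the SREBP motif searched (TCACNCCAC, both strands). Over all 27025 genes with a promoter the share was 1.44%. The window has 250 bases before and 50 after the start (build GRCm38.p6, plus strand, chr13:119690101-119690400), and capitals mark the motif. The 15 genes without a match have none of these letters in this window, from which nothing follows about the factor.
Hmgcs1: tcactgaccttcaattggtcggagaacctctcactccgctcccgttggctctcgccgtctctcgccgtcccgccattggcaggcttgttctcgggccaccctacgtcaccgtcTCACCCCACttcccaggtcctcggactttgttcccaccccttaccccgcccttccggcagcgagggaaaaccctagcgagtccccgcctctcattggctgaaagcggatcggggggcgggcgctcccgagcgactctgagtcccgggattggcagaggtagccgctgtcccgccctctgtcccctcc

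Targets of SRF and Yap, which respond to serum, actin polymerization and cell spreading, were higher in the re-seeded cells. Of 20 listed genes 18 reached 1 FPKM, 10 of which were higher, 0 lower and 8 neither in +dox. Their median log2 ratio was 1.07. The median was higher from 48 h to –dox, 1.73, and below 0 from –dox to +dox, -0.29, where 3 genes were lower and 0 higher. Acta1, the skeletal form of actin, went from 3.97 FPKM in 48 h to 129.9 FPKM in –dox and was at 65.4 FPKM in +dox. Acta2, smooth muscle actin, had 14.2, 136 and 60.2 FPKM, and the tropomyosin gene Tpm1 had 192, 938 and 400.4 FPKM. Tagln (transgelin), another smooth muscle gene, had 14.9, 131 and 97.2 FPKM. In all 4 genes the value of +dox lay between those of 48 h and –dox. The Yap targets Ctgf and Cyr61 stood nearer to –dox, Ctgf with 8.72, 53.6 and 46.5 FPKM and Cyr61 with 17.9, 116 and 101 FPKM. The SRF gene itself had 27.5 FPKM in 48 h and 20.7 FPKM in +dox.

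A CArG box, the site bound by SRF, was found in the promoters of 6 of the 14 genes of this list with a RefSeq promoter, against 1.81% of all 27025 genes with one. The list was written from general knowledge as targets of SRF and Yap. A high share can therefore follow from how it was made, and it says nothing about these cells. The 6 are Acta1, Actg1, Cnn2, Myl9, Srf and Vcl, and of these Acta1 and Cnn2 were higher in +dox than in 48 h. Cnn2, an actin-binding calponin, had 63.1 FPKM in 48 h, 109 in –dox and 133 in +dox. The promoters of these 2 genes are shown for the place of the box, marked in capitals, 73 bases before the start in Acta1 (minus strand, chr8:123894726-123895025) and 56 bases before it in Cnn2 (plus strand, chr10:79988350-79988649), both in GRCm38.p6. Matches are a description of the sequence and not of binding in these cells.
Acta1: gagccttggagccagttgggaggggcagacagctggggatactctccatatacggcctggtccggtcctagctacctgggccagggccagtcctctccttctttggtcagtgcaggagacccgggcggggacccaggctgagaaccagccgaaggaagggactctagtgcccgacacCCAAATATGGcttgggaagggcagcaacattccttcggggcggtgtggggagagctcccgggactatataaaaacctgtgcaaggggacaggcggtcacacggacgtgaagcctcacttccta
Cnn2: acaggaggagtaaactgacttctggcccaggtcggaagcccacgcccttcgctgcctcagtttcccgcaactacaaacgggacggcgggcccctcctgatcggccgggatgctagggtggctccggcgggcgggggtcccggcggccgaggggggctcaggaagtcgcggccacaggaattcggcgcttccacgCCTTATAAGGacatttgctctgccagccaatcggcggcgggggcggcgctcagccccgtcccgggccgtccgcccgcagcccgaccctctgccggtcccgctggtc

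**Figure D3:**
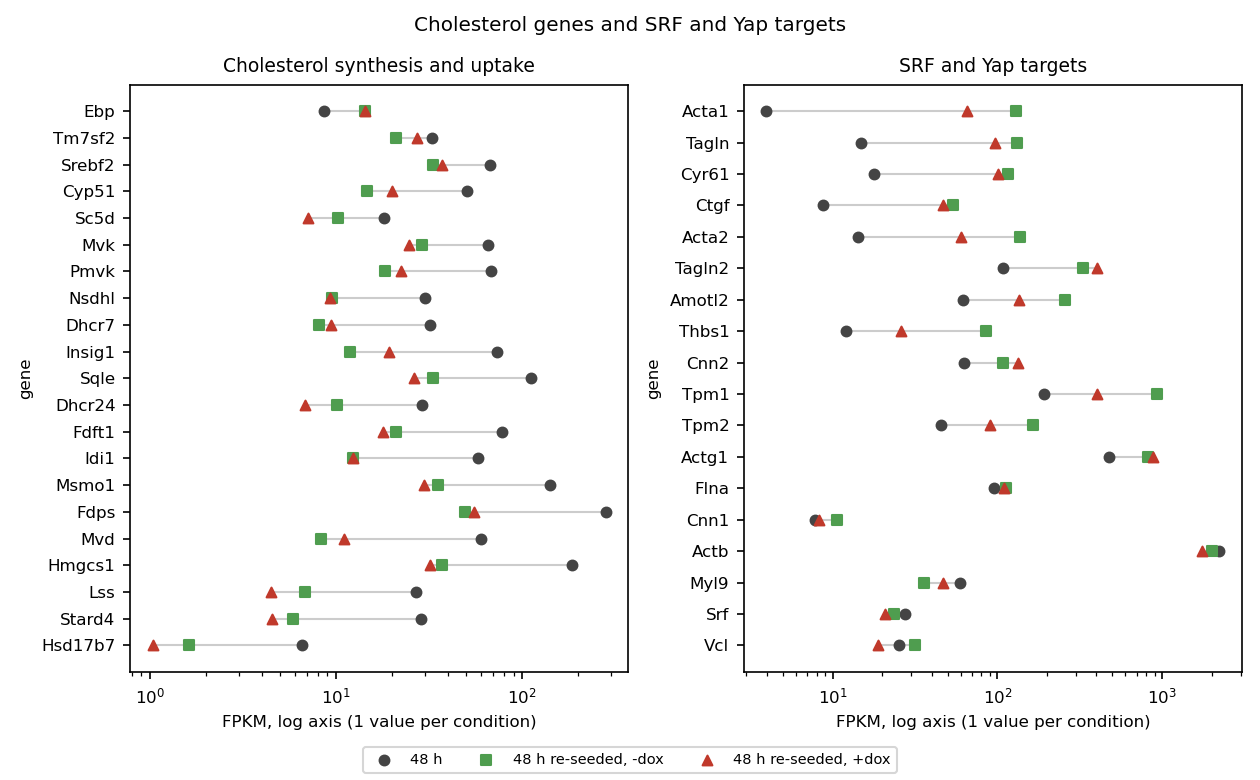
FPKM, on a log axis, of cholesterol genes (left, 3 of the list not shown) and of the SRF and Yap targets (right) that reached 1 FPKM, in 48 h cells (circles), 48 h –dox (squares) and 48 h +dox (triangles), 1 value per condition. The circle lies to the right of the triangle for each cholesterol gene shown except Ebp, and to the left for most SRF and Yap targets, as for Acta1 at 3.97 FPKM.

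LIF signals through Lifr and Il6st to Stat3, and of 14 genes of this pathway 13 reached 1 FPKM, of which 10 were higher, 0 lower and 3 neither in +dox. The median log2 ratio was 2.17, and the medians of the steps were 1.40 from 48 h to –dox and 0.40 from –dox to +dox. The list holds Klf4, 1 of the 4 factors driven by dox, and Klf4 is the gene at the median of +dox to 48 h. The feedback inhibitor Socs3 had 6.07 FPKM in 48 h, 21.3 in –dox and 43.0 in +dox. Bcl3, a co-activator of NF-kB that Stat3 induces, had 5.08, 25.1 and 23.1 FPKM, with both re-seeded values close together. The kinase gene Pim1, a Stat3 target, had 24.9, 207 and 182 FPKM, while its relative Pim2 had 286, 47.7 and 15.6 FPKM and was thus far lower in both re-seeded conditions. Of the receptor genes, Il6st was higher, with 7.08, 11.7 and 18.8 FPKM, and Lifr, just short of 2-fold, was lowest in –dox, with 4.55, 1.98 and 8.63 FPKM. Of 7 BMP targets that reached 1 FPKM, 5 were higher, 1 lower and 1 neither, with a median log2 ratio of 2.75. Smad7, the inhibitor of the pathway, had 2.56, 15.3 and 21.4 FPKM. The Id genes, which encode inhibitors of bHLH factors, differed among themselves. Id1 had 3.75, 51.1 and 86.1 FPKM and Id2 had 5.54, 104 and 73.2 FPKM, both higher after re-seeding. Id3 was lower, with 36.3 FPKM in 48 h, 30.6 in –dox and 6.68 in +dox, and most of its log2 ratio lay in the step with dox. Id4 was higher, at 0.522, 0.844 and 3.52 FPKM.

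Of 13 immediate early genes that reached 1 FPKM, 7 were higher, 0 lower and 6 neither, with a median log2 ratio of 1.15. Junb had 8.70 FPKM in 48 h, 64.7 in –dox and 52.1 in +dox, and Fos had 0.664, 8.70 and 6.26 FPKM. Egr1 differed from most of them in having its highest value in +dox, with 5.30, 8.98 and 17.1 FPKM. Among 14 genes of ERK feedback, 5 were higher, 0 lower and 9 neither, and the median was 0.73. Spry4, an inhibitor of receptor tyrosine kinase signalling, had 11.3, 6.95 and 31.5 FPKM, and Phlda1 had 1.23, 8.68 and 23.6 FPKM. Dusp5, a phosphatase of nuclear ERK, had 6.06, 27.2 and 30.3 FPKM, and Dusp6, which acts on ERK in the cytoplasm, had 41.2, 46.9 and 70.2 FPKM, under 2-fold above 48 h. Spry4 and Phlda1 were both highest in +dox. The ETS factors Etv4 and Etv5, which FGF signalling induces, had under 2-fold differences from 48 h, Etv4 with 26.1, 10.2 and 42.3 FPKM and Etv5 with 122, 57.2 and 118 FPKM, and were lowest in –dox. Of 8 Wnt targets that reached 1 FPKM, 0 were higher, 3 lower and 5 neither, with a median log2 ratio of -0.71. Axin2, the feedback inhibitor of the pathway, had 1.96 FPKM in 48 h, 6.75 in –dox and 0.683 in +dox, and Notum, which inactivates Wnt ligands, had 1.84, 1.20 and 0.159 FPKM. The remaining gene is Lef1, given above.

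Epithelial genes made up the list with the most genes that were higher by number, although some shorter lists had larger shares. All 20 genes of epithelial junctions and keratins reached 1 FPKM, and 15 were higher, 0 lower and 5 neither in 48 h +dox, with a median log2 ratio of 1.72. From 48 h to –dox 15 genes were higher and the median was 1.53, and from –dox to +dox 1 was higher, 4 were lower and the median was -0.11. The 5 genes that were neither include Cdh1 (E-cadherin), with 178 FPKM in 48 h and 171 FPKM in +dox, Epcam, with 165 and 215 FPKM, and the splicing factor Esrp1, with 39.1 and 39.0 FPKM. These 3 were already well expressed in 48 h. Of the 4 claudins of tight junctions in the list 3 were higher in both re-seeded conditions, with Cldn3 at 13.2, 86.0 and 71.9 FPKM, Cldn4 at 48.5, 172 and 166 FPKM and Cldn7 at 56.0, 192 and 176 FPKM, while Cldn6 was neither in +dox, with 116, 255 and 169 FPKM. The keratins of simple epithelia had their highest values in –dox. Krt8 was at 16.2 FPKM in 48 h, 527 in –dox and 106 in +dox, and its partner Krt18 was at 55.2, 1268 and 264 FPKM. Relative to –dox, Krt8 had a log2 ratio of -2.32 in +dox and Krt18 of -2.27. Krt19, another simple keratin, had 4.04, 85.9 and 29.6 FPKM, and Krt7 had 1.96, 18.0 and 4.23 FPKM. Ovol1, a zinc finger factor of epithelial differentiation, had 0.295, 0.341 and 1.14 FPKM, and Lamb3, a laminin chain of basement membranes, had 0.911, 5.43 and 6.42 FPKM. The desmosome gene Dsp had 2.13, 30.2 and 16.5 FPKM.

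Genes of stratified epithelium gave another pattern. Of 16 listed genes 7 reached 1 FPKM, 6 of which were higher and 1, Lgals7, was lower, and the median log2 ratio was 3.67. The median was 1.19 from 48 h to –dox, in which 3 of the 7 were higher, and 3.18 from –dox to +dox. Krtdap, which is made by differentiating keratinocytes, had 1.31 FPKM in 48 h, 2.98 in –dox and 99.0 in +dox, from a gene on chromosome 7 of mm10 from 30787896 to 30791097. The basal keratin Krt14 had 0.0661, 0.433 and 4.72 FPKM, Krt16 had 0.0886, 0.0945 and 3.63 FPKM and Krt17 had 1.27, 1.5 and 13.6 FPKM. Each of these 4 genes was below 3 FPKM in 48 h and –dox and highest in +dox. Krt14 and Krt16 entered the list through +dox alone, so that high values there follow in part from the rule of entry. Their ratios also rest on values near 0. With 1 FPKM added, the log2 ratio of +dox to 48 h was 2.42 for Krt14 and 2.09 for Krt16, and the list median was 2.69. Sfn (14-3-3 sigma) and Perp, a p53 target of desmosomes, were high in both re-seeded conditions, Sfn with 11.7, 220.4 and 99.6 FPKM and Perp with 6.35, 71.3 and 80.7 FPKM. Trp63 and Krt5, which define basal keratinocytes, did not reach 1 FPKM in 48 h or +dox and are listed at 0 in +dox. Of 10 genes of the mesenchymal list, 4 were higher, 1 lower and 5 neither, with a median log2 ratio of 0.56. The gene that was lower is Vim (vimentin), with 134 FPKM in 48 h, 135 in –dox and 25.5 in +dox, and Fn1 (fibronectin) was higher, with 52.3, 98.3 and 145 FPKM. The transcription factors Snai1 and Twist1 were neither, at 2.62 and 2.45 FPKM and at 2.91 and 3.74 FPKM.

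Of the germ layer lists, few genes reached 1 FPKM. Only 5 of 20 primitive streak and mesendoderm genes reached 1 FPKM in 48 h or +dox, 4 of which were higher and 0 lower, with a median log2 ratio of 1.70. Of these 4, Gata4 is a factor of endoderm and heart and the other 3 belong to Nodal signalling, which patterns the epiblast and is also active in cultured pluripotent cells. Nodal had 7.16 FPKM in 48 h, 61.5 in –dox and 23.2 in +dox. Its inhibitors Lefty1 and Lefty2, which are targets of the pathway, had 9.56, 96.2 and 32.4 FPKM and 3.03, 82.1 and 54.5 FPKM. All 3 were highest in –dox, and at 0 h they stood at 30.5, 15.0 and 57.0 FPKM. The defining streak gene T was at 0.390 FPKM in +dox and Mixl1 at 0.180 FPKM. Of 20 neurectoderm genes 4 reached 1 FPKM, and 0 were higher, 1 lower and 3 neither, with a median of -0.05. The neural factor Sox1 did not reach 1 FPKM, at 0.464 FPKM in 48 h and 0.151 FPKM in +dox. The gene that was lower is Tubb3, with 22.5 and 10.1 FPKM. Of 9 genes of extraembryonic endoderm, 6 were higher and 0 lower, with a median of 1.04. Among the 6 were the laminin chain Lama1, with 2.05, 2.21 and 7.92 FPKM, and Gata4, which is in this list too. Gata4 had a log2 ratio of 1.67, or 0.73 with 1 FPKM added. The listed factors Gata6 and Sox17 stood at 0.557 and 0.435 FPKM in +dox. Of 8 trophoblast genes, 5 were higher and 1 lower, with a median of 1.13. Tfap2c, which is also expressed in naive cells, had 2.16, 11.7 and 15.9 FPKM and Tead4 had 2.54, 15.4 and 26.4 FPKM. Gata3 and Esx1 were also higher, with log2 ratios of 1.85 and 1.15, or 0.88 and 0.61 with 1 FPKM added. Cdx2, which defines trophoblast, is listed at 0 in +dox. Of the 19 Hox genes with values 1 reached 1 FPKM in 48 h or +dox.

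Among 11 genes of the retinoic acid response, 3 were higher, 2 lower and 6 neither, with a median log2 ratio of -0.10. Of all genes 14.8% were higher and 11.7% lower. From 48 h to –dox 6 of the 11 were higher and 3 lower, with a median of 1.89. From –dox to +dox 2 were higher and 3 lower, with a median of -0.18. Crabp2, which carries retinoic acid to its receptor, had 109 FPKM in 48 h, 7.10 in –dox and 3.58 in +dox, a 30.4-fold difference. Cyp26a1, which degrades retinoic acid, was higher, with 0.121, 1.27 and 2.55 FPKM. Crabp1, which binds the same ligand, had 21.2, 3.61 and 16.5 FPKM and so was lowest in –dox. Of 12 germline genes, 3 were higher, 4 lower and 5 neither, with a median of -0.44. Rhox5, an X-linked homeobox gene, had 653, 89.2 and 73.0 FPKM, Dazl had 9.36, 0.890 and 1.39 FPKM, and Sycp3, a protein of the synaptonemal complex, was higher, with 12.8, 12.5 and 31.6 FPKM.

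Markers of other cells were read for feeders and other cell types. In bulk samples fewer cells of a type and less RNA per cell cannot be told apart. Of 20 fibroblast and feeder markers, 14 reached 1 FPKM, of which 1 was higher, 7 lower and 6 neither in +dox, with a median log2 ratio of -1.0. They summed to 68.8 FPKM in 48 h, 50.7 in –dox and 47.7 in +dox, against 1096 at 0 h. Col1a1 had 5.00, 4.97 and 2.27 FPKM, and Col3a1 had 2.96, 0.953 and 0.255 FPKM. In –dox against 48 h, 3 of the 14 markers were higher and 5 lower, and 5 stood above 48 h at any size of ratio. Whether feeder cells took part in these values was not tested. The marker that was higher is Loxl1, with 1.10 and 2.42 FPKM. Of 8 blood and immune markers Cd68 reached 1 FPKM, with 14.9 FPKM in 48 h and 42.4 FPKM in +dox, while Ptprc stood at 0.0299 FPKM in +dox. Of 6 endothelial genes that reached 1 FPKM, 2 were higher, 1 lower and 3 neither, with a median of 0.59. The receptor gene Tek had 3.36, 1.03 and 12.5 FPKM, Tie1 had 0.0178, 0.0251 and 1.20 FPKM and Pecam1 had 5.97, 2.05 and 11.3 FPKM, whereas Cdh5, a defining gene of endothelium, stood at 0.0482 FPKM in +dox.

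Of 14 interferon and antigen presentation genes that reached 1 FPKM, 2 were higher, 0 lower and 12 neither in +dox, with a median log2 ratio of 0.17 and a share of higher genes close to the 14.8% of all genes. From 48 h to –dox 6 of the 14 were higher and 0 lower, with a median of 0.997. From –dox to +dox 0 were higher and 3 lower, with a median of -0.70. B2m, the light chain of MHC class I, had 32.2 FPKM in 48 h, 193 in –dox and 351 in +dox, whereas the heavy chain gene H2-K1 had 27.9, 72.8 and 39.6 FPKM. Gbp2, a GTPase induced by interferon, had 0.796, 67.1 and 5.54 FPKM, so that –dox was far above both. Of 19 p53 targets and cell cycle inhibitors, 2 were higher, 1 lower and 16 neither, with a median of 0.35. Both shares were below those of all genes, 14.8% higher and 11.7% lower. Cdkn1a (p21) had 27.1, 64.4 and 55.7 FPKM, and the locus of Cdkn2a, a barrier to reprogramming in somatic cells, had 24.9, 16.5 and 8.47 FPKM. Of 17 glycolysis genes, 1 was higher, 4 lower and 12 neither, with a median of -0.28. Here the share of higher genes was below that of all genes and the share of lower genes above it. The gene that was higher, the glucose transporter Slc2a3, had 27.7 FPKM in 48 h, 1088 in –dox and 446 in +dox. Its relative Slc2a1 was lower, with 111, 125 and 39.6 FPKM. Ldha, which makes lactate, had 1147, 292 and 269 FPKM, and Slc16a3, which exports it, had 150.2, 57.1 and 31.3 FPKM.

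The log2 ratio of +dox to 48 h was largest, among genes with 10 FPKM or more in either, at 6.58 for Trim67, 6.53 for Pla2g7 and 6.24 for Krtdap. Trim67, a ubiquitin ligase gene on chromosome 8 of mm10 from 124793092 to 124834713, had 0.121 FPKM in 48 h, 13.2 in –dox and 11.6 in +dox. Pla2g7, which inactivates platelet-activating factor, had 0.274, 7.34 and 25.2 FPKM. Next came the semaphorin and VEGF co-receptor Nrp2, with 0.278, 3.39 and 18.5 FPKM, Anxa3 with 2.54, 151 and 116 FPKM, and Tinagl1, a matrix protein, with 0.612, 81.9 and 26.1 FPKM. S100a13, Tgm2 and Jam2 were highest in +dox. S100a13 had 1.96, 31.0 and 74.9 FPKM, the transglutaminase Tgm2 had 0.646, 5.87 and 18.9 FPKM and the junctional adhesion gene Jam2 had 1.31, 3.15 and 34.6 FPKM. Jam2 stood at 222 FPKM at 0 h. The 12 with the largest ratios also include the antisense genes Gm13205 and Srrm4os, whose reads cannot be told from those of the opposite strand unless strand was used.

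The smallest log2 ratios were -6.67 for Lef1 and -6.61 for Fgf5, followed by 4930591A17Rik, Ccno and Crabp2. Ccno, an atypical cyclin of multiciliated cells, had 10.1 FPKM in 48 h, 0.700 in –dox and 0.244 in +dox. Cxcl12, a chemokine, had 14.7, 1.58 and 1.11 FPKM, and Rec114, which is needed for meiotic recombination, had 32.6, 1.66 and 2.39 FPKM. Rpl39l, a paralog of the ribosomal protein gene Rpl39 whose reads may be shared with it, had 125, 5.48 and 8.36 FPKM. Slc4a5, Sall2, Pim2 and Gm5914 complete the 12. Listed at 0 in 1 of the compared conditions and at 10 FPKM or more in the other were Gm20412, at 14.6 FPKM in +dox, and Spata45, at 10.8 FPKM in 48 h. By plain difference the 8 largest gains were those of Ftl1 and 7 ribosomal protein genes, Ftl1 (ferritin light chain) going from 3399.5 to 7733 FPKM. Ribosomal protein genes have many processed copies, and how reads shared with these were counted is not stated. The 8 largest losses included the metallothioneins Mt1 and Mt2 and the ferritin heavy chain Fth1, which went from 2456 to 977 FPKM. The other 5 were Ptma, Npm1, Ldha, Ppia and Rpl37a, of which Ptma had 5289 FPKM in 48 h and 2243 FPKM in +dox.

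Genes were also grouped by conditions of the time course that share no sample with 48 h or 48 h +dox. The 36 h cells came just before 48 h in the same withdrawal. Sharing no sample therefore does not make the grouping independent of the 48 h values. A gene low or high at 36 h may be so at 48 h too, which bears on its ratio to any other condition. Of 1590 genes that were at least 2-fold lower at 36 h than at 0 h, 794 (49.9%) were higher and 98 (6.16%) lower in +dox than in 48 h, with a median log2 ratio of 0.99. Of 1377 genes that were higher at 36 h, 88 (6.39%) were higher and 563 (40.9%) lower, with a median of -0.71. Over all genes the shares were 14.8% and 11.7%. In –dox the medians of these groups against 48 h were 0.77 and -0.65, and from –dox to +dox they were 0.17 and -0.06. Grouped by the last day of differentiation, 454 genes were higher at 96 h than at 72 h, of which 231 (50.9%) were higher in +dox, and 564 were lower at 96 h, of which 239 (42.4%) were lower in +dox. Their medians were 1.03 and -0.66 in +dox against 48 h, and 1.38 and -1.15 in –dox against 48 h. From –dox to +dox the medians of these late groups had the opposite signs, -0.40 for the genes that were higher at 96 h and 0.52 for those that were lower. Anxa3 and Slc2a3 are examples of late genes, with 39.5 and 889.5 FPKM at 96 h. The genes are not independent replicates, and these shares describe the profiles only.

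**Figure D4:**
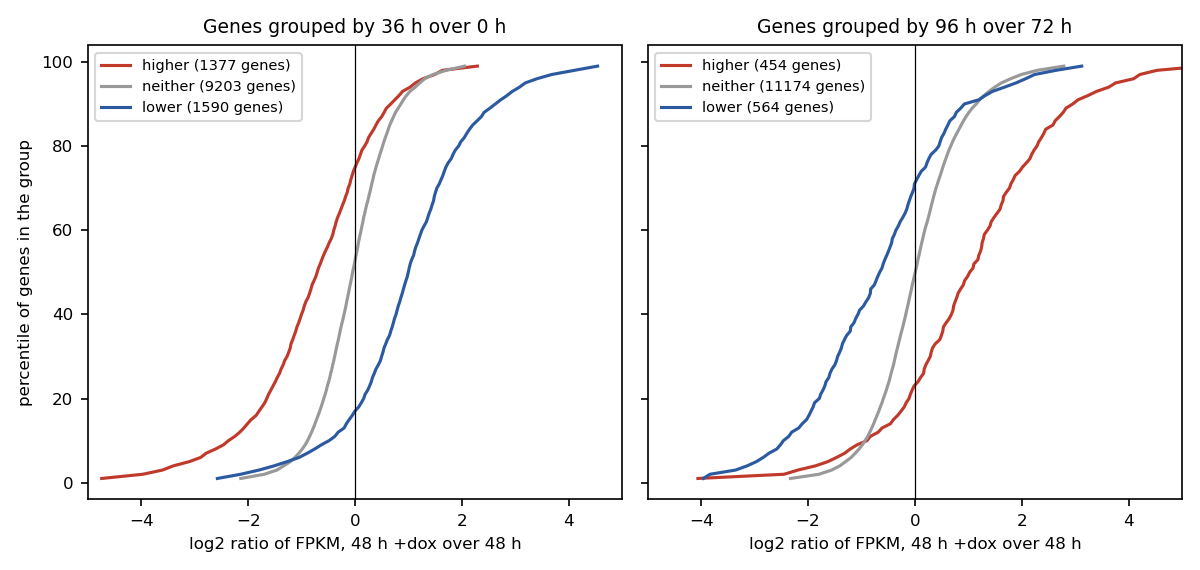
Percentile of genes (vertical axis) against the log2 ratio of FPKM in 48 h +dox over 48 h (horizontal axis), for genes higher, lower or neither at 36 h than at 0 h (left) and at 96 h than at 72 h (right). On the left the lower genes lie to the right of the others, with a median of 0.99, and on the right the higher genes do, with a median of 1.03.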

How the data were processed

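Polyadenylated RNA of mouse cells was sequenced. The authors aligned reads to mm10 with TopHat2 2.0.14, and quantified Gencode vM4 genes with Cuffquant and Cuffdiff of Cufflinks 2.2.1, keeping transcripts of at least 200 bp in 6 biotypes. The deposited table gives FPKM as 1 value per gene for each of 15 conditions, each from 2 replicates, and the setting for library normalization is not given in the sources used here. Its 5 columns of the authors' own calls were not used. The table names genes by symbol only. Of its symbols 27 had been turned into dates and are not named here, and 94.9% were found in the Gencode M21 annotation, from which the positions come.

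From these values log2 ratios of +dox to 48 h, –dox to 48 h and +dox to –dox were computed in Python 3.11.15 with numpy 2.4.6 and pandas 2.3.3, with nothing added. Counts over all genes took those with at least 1 FPKM in either condition compared. Lists, families and time course groups took those with at least 1 FPKM in 48 h or +dox for every ratio. Genes at 0 in 1 condition count as higher or lower and have no ratio. Differences of at least 2-fold are called. No test was possible, because replicates are combined, and depth is unknown. Figures were drawn with matplotlib 3.10.9, and the counting of ratios was tested on simulated data. The genes named are OSKM, the genes of 27 lists written from general knowledge, the 12 largest and 12 smallest log2 ratios among genes above 0 in both conditions and at 10 FPKM or more in one, the 8 largest gains and losses in FPKM, and genes at 0 in 1 condition and at 10 FPKM or more in the other. The members and lists were chosen with earlier results of these data known. Some genes stand in 2 lists, and some genes that the rule covers are not reported here. Promoters are RefSeq windows of GRCm38.p6, matched by symbol, and were searched on both strands. Alternatives were other minima, folds, added constants, scalings and groupings of the time course.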

Additional observations from a re-analysis of the deposited data

How the results depend on the processing

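No paired analysis was possible because the table combines the replicates of a condition in 1 value, and for the same reason no replicate could be left out. The number of genes higher in 48 h +dox, 1891, was 804 where the higher condition had to reach 10 FPKM, 3777 with no minimum, 3186 at 1.5-fold and 609 at 4-fold. It was 1271 with at least 1 FPKM in both conditions and 1312 with 1 FPKM added. The number of genes lower in 48 h +dox, 1493, was 681, 3768, 2890, 440, 982 and 1041 under the same settings in the same order. Lists with 1 gene at 1 FPKM have no median and were left out of the alternatives. No list median of at least 1 in size on the log2 scale changed its sign under any alternative run, but some came under 1. With 1 FPKM added, the medians were 0.98 for extraembryonic endoderm, 0.71 for trophoblast and -0.72 for fibroblast and feeder genes. With at least 1 FPKM in both conditions they were 0.68 for trophoblast, -0.76 for fibroblast and feeder genes and 0.78 for immediate early genes. With values scaled to equal sums they were 0.92 for extraembryonic endoderm and 0.95 for SRF and Yap targets, and the share of called genes that were higher was 47.4%, against 55.9% as deposited. In the time course, grouping at 4-fold gave medians of -1.10 for genes higher and 1.42 for genes lower at 36 h, and -1.39 for genes lower at 96 h. With 96 h against 60 h the last was -1.05, and with at least 1 FPKM in both conditions genes higher at 96 h had a median of 0.79. How many reads a ratio of a gene near 1 FPKM rests on is unknown, and so is its error.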

Other observations

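Gene families outside the lists were read after their values had been seen, so their counts describe these profiles and support nothing beyond them. Of all genes 14.8% were higher and 11.7% lower. Of 8 S100A genes, which encode small calcium-binding proteins, 7 were at least 2-fold higher in 48 h +dox than in 48 h and 0 were lower, with a median log2 ratio of 2.76. The median was 2.90 from 48 h to –dox and 1.07 from –dox to +dox. Of 9 annexins, which bind membranes in the presence of calcium, 5 were higher and 0 lower, with a median of 1.01. The gene at that median, Anxa5, came under 2-fold with 1 FPKM added, at 0.86, and with values scaled to equal sums, at 0.89. Of 7 genes taken as small heat shock protein genes by their symbols, 5 were higher and 1 lower. Hspb11, which was taken in by its symbol alone, is among the 5, with a log2 ratio of 2.22. The neighbouring genes Cryab and Hspb2 are examples, Cryab with 2.09 FPKM in 48 h, 71.4 in –dox and 50.1 in +dox, and Hspb2 with 1.91, 28.6 and 25.9 FPKM. Of 17 glutathione S-transferase genes, which detoxify electrophiles, 10 were higher and 2 lower, with medians of 0.29 from 48 h to –dox and 0.96 from –dox to +dox. Members of such families share sequence, and how shared reads were split is not stated.

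The 81 ribosomal protein genes had a median log2 ratio of 0.35, with 72 above and 9 below 48 h, although only 1 was at least 2-fold higher and 4 were lower. With values scaled to equal sums the median is 0.12 lower and still above 0. They summed to 232667 FPKM in 48 h, 258796 in –dox and 313274 in +dox, and this sum differed between 48 h and +dox by more than the sum of all genes did.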
